A study of Rattus norvegicus with 12 samples.

Results

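Unstretched cardiomyocytes isolated from newborn rats are described here by what they expressed at rest, in the 3 control cultures of a series of 12. These are the cells against which the effects of mechanical stretch were measured. The members are the 3 arrays titled as controls, 1 culture per array, and every named gene was ranked by its mean signal over them. The cells came from neonates, were grown for 24 h in DMEM with 10% serum, antibiotics and glutamine, and sat on collagen-coated silicone membranes that were not moved. The other 9 cultures (3 each) were grown the same way and then received cyclic biaxial stretch with 20% elongation for 2, 6 or 24 h. The labels call the 3 cultures of a group biological replicates. The rat strain, the number of pooled animals and the time the controls spent on the membrane are not given in the sources used here.

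A heart muscle cell contracts when myosin of the thick filament pulls on actin of the thin filament. Calcium released from the sarcoplasmic reticulum switches the thin filament on through troponin, and a pump returns the calcium between beats. Around birth the rodent heart exchanges fetal protein isoforms for adult ones and turns from glucose and lactate towards fatty acids as fuel. Cells isolated from newborn hearts stand within that exchange, and such preparations are known to carry fibroblasts and other heart cells along.

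Signals are given as levels on a log2 scale. A level of 0 is the 75th percentile of all probes on the array, and a level of 3 is 8-fold above it, so each unit is a doubling. A gene counted as above background when the image software marked at least 1 of its probes as well above background on all 3 arrays. Each level comes from that gene's brightest such probe, with its SD over the 3 cultures (n = 3). Probes bind their targets with different efficiency. For the 2180 genes with more than 1 probe above background, the probes of a gene differed by a median of 1.90 in level, and by at least 2 for 47.5% of these genes. Ranks and medians therefore order probe signals, and no difference in level between genes or isoforms is read as a difference in mRNA amount.

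The main myosin heavy chains of heart muscle were among the genes with the highest signals. Their array probes, each 60 bases long, were compared with each other but not with the transcript of the other gene. How far the signals of these near relatives are separate readings was therefore not tested. Myh6 encodes the alpha heavy chain, the fast adult form in rodents, and Myh7 the beta heavy chain, the slow form of the fetal rodent heart. On build rn4 both lie on the minus strand of chromosome 15, with the Myh6 probe at chr15:33044576-33044983, a span wider than the probe itself, and the Myh7 probe at chr15:33073880-33073939. The deposited probe sequences follow, with capitals for the longest run of bases that they share.
Myh6: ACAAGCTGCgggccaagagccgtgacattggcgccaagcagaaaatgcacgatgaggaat
Myh7: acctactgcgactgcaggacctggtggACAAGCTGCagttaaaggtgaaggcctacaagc
The shared run was 9 bases long, and in the best alignment without gaps 22 of 54 overlapping bases were the same. In each probe 33 of 60 bases are G or C.

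The level of Myh6 was 7.96, 8.11 and 7.96 in the 3 cultures, or 8.01 ± 0.09, which is 258-fold the 75th percentile and rank 6 among genes above background. That of Myh7 was 7.73, 7.93 and 7.84, or 7.83 ± 0.10, at rank 11. Replicate 2 gave the highest level of both myosins, and both were above background in every culture. Orders of the cultures here and below hold for levels scaled to the 75th percentile. They can differ when spike-in spots set the scale. The natriuretic peptides, hormones that heart muscle secretes under load and in fetal life, were also strong at rest. Nppa (rn4 chr5:165074636-165074695) read 6.04, 5.87 and 5.97, and Nppb (rn4 chr5:165062879-165062938) read 5.86, 5.63 and 5.70. For both hormones replicate 1 was highest and replicate 2 lowest, the opposite order from the myosins, with SDs of 0.09 and 0.12.

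The cardiomyocyte markers examined were Myh6, Myh7, Nppa, Nppb, Actc1, Tnnt2, Tnni3, Myl2, Myl3, Mybpc3, Actn2, Ryr2 and Pln. All 13 were above background in every culture, against 63.5% of all named genes, and 12 of them fell in the highest 10% of genes above background. The exception was Ryr2, the calcium release channel, at -0.42 ± 0.16. These are textbook markers of high abundance, and of the 166 measured genes in all heart lists a smaller part was found, with 138 above background and 40 in the highest 10%. Those lists also hold isoforms typical of other tissues, such as the skeletal forms Myh2, Myl1, Tnnt3 and Neb, which were above background on no array. The smaller part therefore reflects in part how the lists were made. The defining markers of cardiomyocytes were thus present in every culture, and markers of other heart cells were present as well and are given further on. In RNA from a whole culture, fewer cells of a type and less RNA per cell cannot be told apart.

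**Figure D1:**
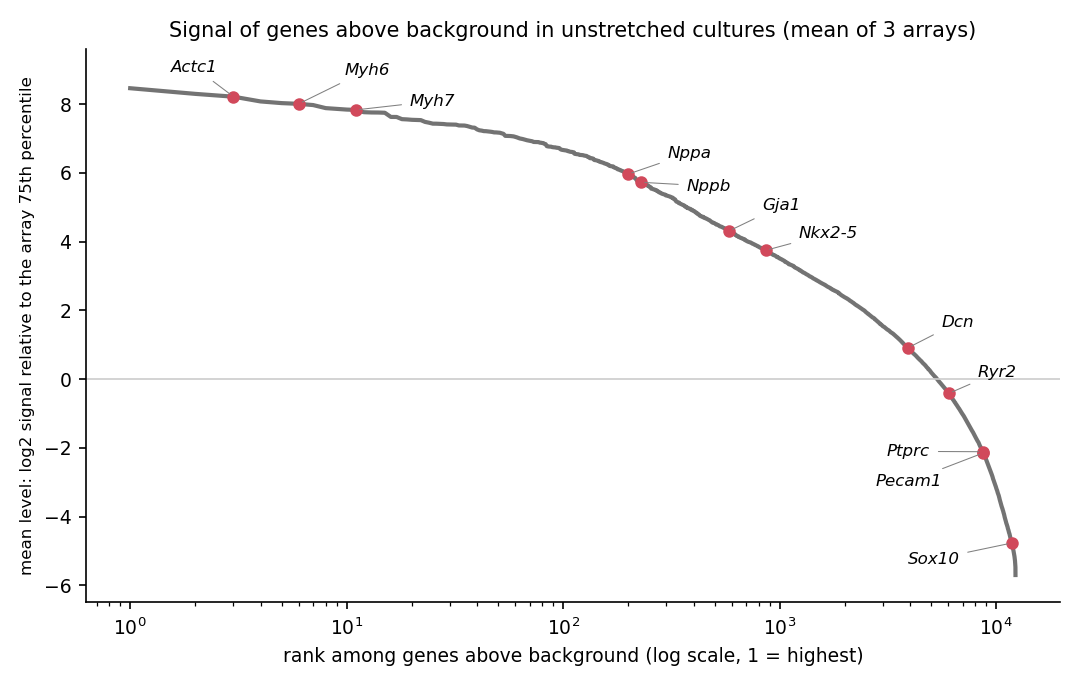
Mean level over the 3 control arrays (y axis, log2 signal relative to the array's 75th percentile) against rank among the 12277 genes above background (x axis, log scale); the grey line holds all these genes and red points mark 12 labelled genes, some of them chosen after their values were seen. Actc1, Myh6 and Myh7 sit on the plateau at the left, Nppa and Nppb at ranks 199 and 228, and Ryr2, Pecam1, Ptprc and Sox10 on the falling part.

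The control arrays were alike in their spot marks. Of 58717 spots per array, 68.4% to 70.6% passed the background mark and none was saturated. The intensity at the 75th percentile of probes was 909, 866 and 928, and that of the spike-in spots 279, 352 and 281. Of 19326 named genes measured, 12277 (63.5%) were above background on all 3 arrays, 785 on 1 or 2 arrays and 6264 on none. Levels of the genes above background ran from -5.70 to 8.47 with a median of -0.48. The 30 highest genes held 10.6% to 11.1% of the summed signal of genes above background, and the 100 highest 25.6% to 26.2%. Pearson's r between arrays, across genes, which are not independent replicates, was 0.998 in each of the 3 pairs.

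The head of the ranking was made of protein synthesis and contraction. Rpl41, a protein of the large ribosomal subunit, stood first at 8.47 ± 0.08, and 16 of the 30 highest genes carried ribosomal protein symbols. Of 102 such symbols measured, 97 were above background and 84 were in the highest 10%, with a median of 6.55. Among the remaining genes of the 30 highest were the muscle genes Actc1, Myh6, Tnnt2, Myh7 and Pln, and Cryab, a small heat-shock protein that binds desmin and the Z-disc. Atp5f1a, the alpha subunit of mitochondrial ATP synthase, gave 7.54 ± 0.02. Others were Myl6, a light chain of non-muscle and smooth muscle myosin (7.43 ± 0.03), the prolyl isomerase Ppia (7.43 ± 0.09), the growth-related protein Tpt1 (7.41 ± 0.04), the matrix protein Sparc and the stefin Stfa2 (7.75 ± 0.04), a member of a family of cysteine protease inhibitors. The array names LOC310926 (8.30 ± 0.07) and LOC688136 (7.42 ± 0.07) have no current symbol in the RefSeq table. Ranked on each array alone, 25 genes were among the 30 highest on every array and 34 on at least 1.

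Thick filament genes were present in both cardiac and fetal forms, while several forms of adult fast skeletal muscle were not above background. Of 20 measured members, 16 were above background (80.0%), with a median level of 4.37 against -0.48 for all genes above background, and 11 lay in the highest 10%. Light chains of both chambers were found. Myl2, the regulatory chain typical of ventricle, read 5.41, 5.27 and 5.35, and Myl7, its atrial relative, 5.90, 5.72 and 5.82. The essential chain of ventricle, Myl3, was at 6.10 ± 0.04 and that of atrium and fetal ventricle, Myl4, at 5.59 ± 0.04. All of these light chains were thus above background in every culture, with SDs of at most 0.09.

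The perinatal skeletal heavy chain Myh8 gave 3.89, 4.17 and 4.15. Its probe shares a run of 12 bases with the Myh6 probe, and 32 of 53 aligned bases are the same; what part of the Myh8 signal comes from Myh6 transcripts was not tested. The embryonic heavy chain Myh3 was at -1.89 ± 0.11 and the adult fast chain Myh1 at -3.58 ± 0.10, both below the 75th percentile. Myh2 and the fast light chain Myl1 were above background on no array. Structural partners of myosin were well above background. Mybpc3, the cardiac myosin-binding protein C, read 4.71, 4.94 and 4.97, and the M-band protein Myom2 4.53, 4.71 and 4.76. The giant spring protein titin, Ttn, was at 3.42 ± 0.20, with replicate 1 lowest (3.24) and replicate 3 highest (3.63).

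Among thin filament genes the cardiac forms were above background, and of the fast skeletal forms some were and some were not. Above background were 19 of 21 members (90.5%), with a median of 3.46 and 10 in the highest 10%. Cardiac actin, Actc1, read 8.20, 8.28 and 8.18 and stood at rank 3. Cardiac troponin T, Tnnt2, was at 7.84 ± 0.06, with its second probe at 6.91, and troponin C of heart and slow muscle, Tnnc1, at 7.38 ± 0.04. Tropomyosin 1, Tpm1, whose probes gave 6.73 and 3.47, shows how far probes of 1 gene can lie apart.

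Both heart forms of troponin I, the subunit that blocks contraction at low calcium, were above background in every culture. Tnni1, the slow skeletal form that the fetal heart uses, read 6.43, 6.32 and 6.34. Tnni3, the adult cardiac form, read 6.25, 6.21 and 6.23. The mean of Tnni1 was 6.36 ± 0.06 and that of Tnni3 6.23 ± 0.02, a gap smaller than the median range of 1.90 between probes of a gene. Of the fast skeletal forms, troponin C, Tnnc2, was at 2.02 ± 0.13, above the 75th percentile and at rank 2423. The fast troponin I gene Tnni2 was at -3.23 ± 0.19, and the fast troponin T gene Tnnt3 and nebulin, Neb, were above background on no array.

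Other actins were found alongside Actc1. Skeletal actin, Acta1, which the fetal and the loaded heart also express, read 3.42, 3.39 and 3.56. Smooth muscle actins were at 4.48 ± 0.09 (Actg2, with its second probe at 4.33) and 2.31 ± 0.09 (Acta2). The probes of Acta1, Actg2 and Acta2 share runs of at most 6 bases with the Actc1 probe or with each other. They were not compared with the transcripts, and what part of these signals comes from Actc1 transcripts was not tested. The filament nucleator Lmod2 was at 4.36 ± 0.11.

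**Figure D2:**
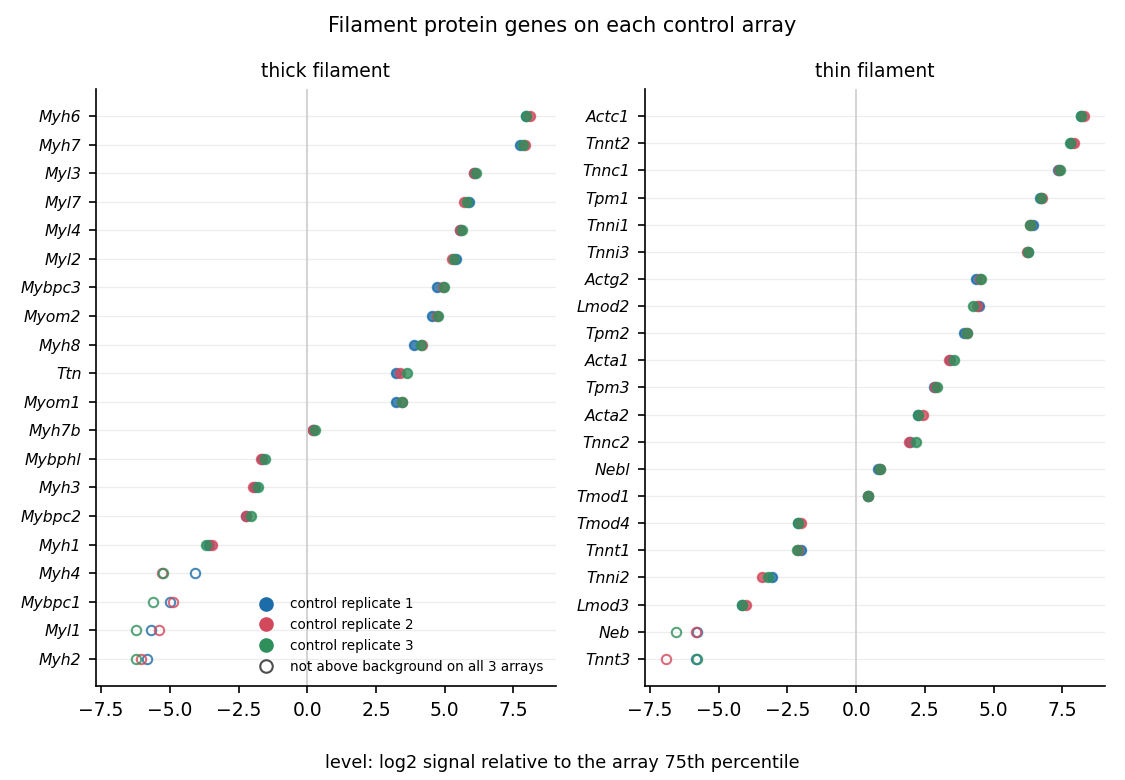
Level on each control array (x axis, log2 signal relative to the array's 75th percentile) for thick filament genes (left) and thin filament genes (right), 1 point per culture, with open circles for genes not above background on all 3 arrays, whose values are only bounds. Points of the 3 cultures nearly coincide for most genes above background, from Actc1, Myh6 and Myh7 at the top to Myh1 and Lmod3, and the open circles at the bottom belong to Myh4, Mybpc1, Myl1, Myh2, Neb and Tnnt3.

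At the Z-disc, which anchors thin filaments and senses load, 16 of 18 measured members were above background (88.9%, median 3.31). Cryab read 7.57, 7.58 and 7.52. Ankrd1, a load-responsive nuclear and titin-binding protein, read 6.85, 6.63 and 6.76, and Csrp3, the muscle LIM protein, 5.60, 5.47 and 5.49. Desmin, Des, the intermediate filament of muscle, was at 5.31 ± 0.04. The assembly protein Nrap was at 4.72 ± 0.04, the actin-binding Nexn at 4.64 ± 0.07 and the alpha-actinin Actn2 at 4.51 ± 0.16. The fast skeletal alpha-actinin Actn3 was near the threshold (-4.93 ± 0.86), and the skeletal proteins Ankrd2 and Myot were above background on no array.

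Promoters of some of these genes carry sequences by which cardiac factors are known to act, and 4 are shown. Nppa and Nppb are shown as markers, and Mybpc3 and Myoz2 were chosen for a motif match given below. Sequences are the 250 bases before the start of the gene, from RefSeq on build GRCr8, written along the gene's strand, with matches to searched motifs in capitals. The first motif was TATAAA, the core of many promoters. A further motif was TGATAA, which GATA factors bind, and another CATTCC, which TEAD factors bind. The CArG box of serum response factor and the MEF2 site were searched as well, each motif on both strands. A MEF2 site can contain TATAAA and reads as a match on both strands, as does a CArG box. In the 4 promoters shown no matches to different motifs overlapped. Nppa lies at chr5:163711934-163712183 and Nppb at chr5:163699758-163700007, both on the plus strand. Mybpc3 lies at chr3:97550811-97551060 on the plus strand, and Myoz2, which encodes a Z-disc protein that binds calcineurin, at chr2:213852779-213853028 on the minus strand.
Nppa: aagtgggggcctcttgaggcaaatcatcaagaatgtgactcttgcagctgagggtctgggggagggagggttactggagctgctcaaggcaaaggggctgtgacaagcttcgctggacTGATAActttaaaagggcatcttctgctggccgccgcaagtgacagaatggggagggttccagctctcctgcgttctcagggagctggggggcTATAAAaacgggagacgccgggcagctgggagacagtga
Nppb: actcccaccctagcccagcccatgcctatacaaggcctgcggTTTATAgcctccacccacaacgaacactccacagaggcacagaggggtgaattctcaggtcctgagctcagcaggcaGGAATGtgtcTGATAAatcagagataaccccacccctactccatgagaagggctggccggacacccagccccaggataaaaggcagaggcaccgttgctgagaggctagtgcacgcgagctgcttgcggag
Mybpc3: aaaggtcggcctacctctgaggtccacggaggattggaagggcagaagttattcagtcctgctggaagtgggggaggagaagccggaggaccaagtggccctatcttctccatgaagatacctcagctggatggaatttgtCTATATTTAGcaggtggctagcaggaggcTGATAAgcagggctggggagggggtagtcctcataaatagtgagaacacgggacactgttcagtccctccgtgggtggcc
Myoz2: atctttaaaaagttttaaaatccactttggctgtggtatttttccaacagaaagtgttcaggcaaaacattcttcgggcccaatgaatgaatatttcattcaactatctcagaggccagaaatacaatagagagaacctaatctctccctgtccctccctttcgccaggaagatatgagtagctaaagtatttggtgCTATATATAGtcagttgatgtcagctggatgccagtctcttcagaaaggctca
In Nppa the TATAAA match starts 39 bases before the gene and the TGATAA match 132 bases before. Nppb has TGATAA at 121 bases, CATTCC on the other strand at 131 and TATAAA on the other strand at 208. The MEF2 site starts 109 bases before Mybpc3 and 53 bases before Myoz2. These genes were shown because they rank highest among sarcomere genes with a MEF2 site, so their matches were fixed by that choice.

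Across the 3 sarcomere lists, 44 of the 51 members above background had a promoter in the table. A MEF2 site was found in 9 of these 44 (20.5%), against 1.63% of 9491 genes above background and 3.32% of all 27457 promoters. The 9 were Mybpc3, Myoz2, Ttn, Hspb7, Xirp1, Xirp2, Synpo2l, Myh1 and Myoz1, some of which had low levels, such as Myoz1 at -3.97. A CArG box was found in 3 of 44 (6.82%), those of Myl3, Acta1 and Nebl. It was found in 1.26% of genes above background and 1.62% of all promoters. TGATAA was found in 2 of 44 (4.55%), against 4.12% of genes above background and 8.60% of all promoters, and CATTCC in 10 of 44 (22.7%), against 10.6% and 12.9%. TATAAA within 50 bases before the start, on the gene's strand, was found in 11.4% of the 44. The share was 2.03% in genes above background and 2.66% in all promoters. Anywhere in the window TATAAA was found in 15.9% of the 44, against 7.48% and 14.1%. Among the 30 highest genes, 25 had a promoter in the table and 0 of them held either a MEF2 site or a CArG box. These matches describe letters in a short window and say nothing of binding in these cells.

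Genes of calcium handling ranged from the head of the ranking to background. Of 26 measured members 19 were above background (73.1%, median 0.34). Phospholamban, Pln, which restrains the calcium pump, read 7.75, 7.82 and 7.71. The pump of heart and slow muscle, Atp2a2, read 5.86, 5.98 and 5.97, with its second probe at 3.95. Its fast skeletal relative Atp2a1 was at -3.11 ± 0.07, and Atp2a3 was above background on no array. The calcium store protein Casq2 was at 5.16 ± 0.08 and its anchor Trdn at 4.49 ± 0.05, with its second probe at -0.40. Sarcolipin, Sln, a pump regulator known from atria, was at 3.22 ± 0.11. S100a1, a calcium sensor of heart muscle, was at 2.21 ± 0.12.

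Several large calcium genes gave modest signals. The L-type channel Cacna1c read -0.10, 0.08 and 0.01 and the exchanger Slc8a1 0.32, 0.33 and 0.38, both near the 75th percentile. Their other probes lay at -3.14 for Cacna1c, and at -0.29 and -0.49 for Slc8a1. The isoforms Slc8a2, Slc8a3 and Cacna1d, and the neuronal kinase Camk2a, were above background on no array.

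Of 27 ion channel and gap junction genes 22 were above background (81.5%, median -0.66). Connexin 43, Gja1, the main junction protein of working myocardium, read 4.38, 4.30 and 4.25. Connexin 40, Gja5, of atria and conduction tissue, was at 3.04 ± 0.09. Potassium channel genes among the highest members were Kcnq1 (2.91 ± 0.07), Kcnj5 (2.80 ± 0.02) and Kcnk3 (1.59 ± 0.06), and the second probes of Kcnq1 and Kcnj5 lay at -0.63 and -2.12. The Kcnq1 partner Kcne1, the skeletal sodium channel Scn4a and the potassium channel Kcna5 were above background on no control array.

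Hormone and receptor genes were above background in 21 of 26 cases (80.8%, median -0.46). Beside Nppa and Nppb, the highest members were Ece1, which activates endothelin (2.95 ± 0.02, with its second probe at -3.16), the alpha-1B adrenergic receptor Adra1b (2.77 ± 0.07), adrenomedullin, Adm (2.30 ± 0.05), and Furin, a protease that cleaves hormone precursors (1.75 ± 0.04). The third natriuretic peptide gene, Nppc, was above background on no array. The same held for Agt, Agtr1b, Agtr2 and Adrb3. Angiotensin receptor 1a, Agtr1a, partner of Agtr1b, was at -1.90 ± 0.03.

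Cardiac transcription factors were mostly above background at modest levels, 25 of 28 (89.3%) with a median of -1.29. Serum response factor, Srf, read 3.78, 3.78 and 3.74, and the homeobox factor Nkx2-5 3.77, 3.75 and 3.72. Both were steady, with SDs of 0.02. Gata4 was at 2.67 ± 0.09, the ventricular factor Irx4 at 2.22 ± 0.04, Mef2d at 1.56 ± 0.05 and Mef2c at 1.38 ± 0.04. Isl1, a factor of cardiac progenitors and the sinus node, and the sinus node factor Shox2 were above background on no array.

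Fuel genes were almost all above background. For fatty-acid uptake and oxidation this held for 39 of 40 members (97.5%, median 1.63, 10 in the highest 10%), and for glucose uptake, glycolysis and lactate for 35 of 38 (92.1%, median 2.98, 15 in the highest 10%). The enzymes of glycolysis gave strong signals. Eno1 was at 6.67 ± 0.03, Pgk1 at 5.99 ± 0.01, Gapdh at 5.74 ± 0.07 and Pgam1 at 5.73 ± 0.03. The other Eno1 probes lay at 5.38 and 1.67. Lactate dehydrogenase was found in both chains, Ldha at 6.59, 6.66 and 6.62 and Ldhb, the form of oxidative muscle, at 6.52, 6.53 and 6.53. The testis form Ldhc and the liver form Pklr were above background on no array.

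Isoform pairs of glucose metabolism are given next. The fetal glucose transporter Slc2a1 read 2.92, 2.79 and 2.73, and the insulin-responsive Slc2a4 of adult muscle -1.39, -1.44 and -1.48. The neuronal transporter Slc2a3 was at -3.84 ± 0.24. Hexokinase 1, Hk1, was at 3.66 ± 0.04 and hexokinase 2, Hk2, the form of adult muscle, at -1.93 ± 0.06. All of these were above background in every culture, and each was read by a single probe. Muscle enolase, Eno3, was at 3.68 ± 0.07 and neuronal enolase, Eno2, at 0.46 ± 0.05.

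Fatty-acid genes covered the path from uptake to oxidation. The dehydrogenase Acadl read 5.14, 5.16 and 5.10, and the electron carrier Etfb 4.63, 4.61 and 4.59. The binding protein Fabp3 was at 4.42 ± 0.04, the dehydrogenase Hadh at 4.37 ± 0.06 and the transporter Cd36 at 4.19 ± 0.03, with a second probe at 1.94. Carnitine palmitoyltransferase 1 admits long-chain fatty acids to mitochondria. Its muscle form Cpt1b was at 3.89 ± 0.07 on 1 probe and at -2.44 on another, the liver form Cpt1a at 1.48 ± 0.22 and the brain form Cpt1c at -1.69 ± 0.14. The order of the muscle and liver forms thus depends on which Cpt1b probe is read. Ucp3, a mitochondrial carrier of muscle, was above background on no array.

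**Figure D3:**
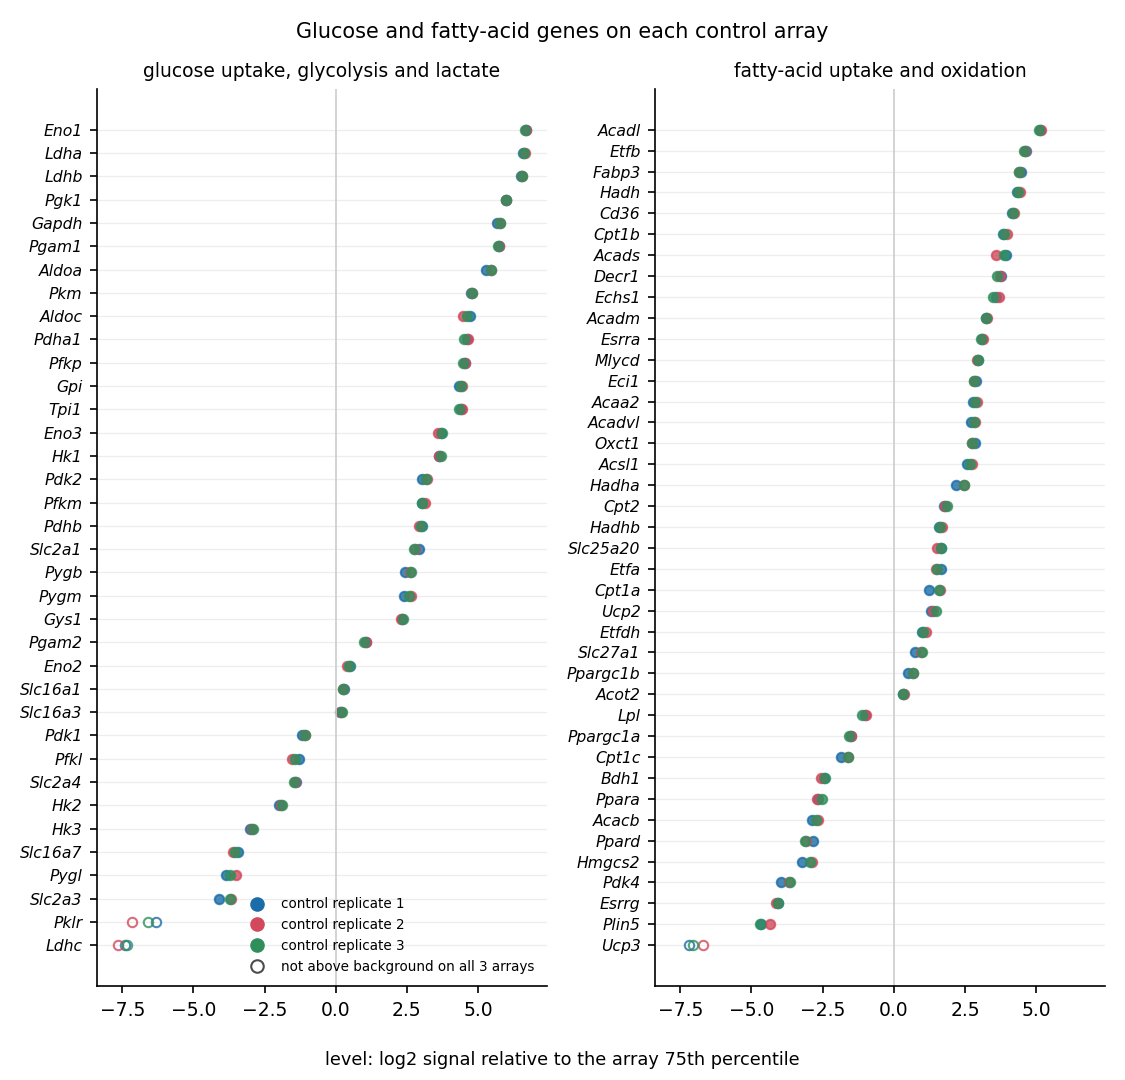
Level on each control array (x axis, log2 signal relative to the array's 75th percentile) for genes of glucose use (left) and of fatty-acid use (right), 1 point per culture, with open circles for genes not above background on all 3 arrays, whose values are only bounds. Among genes above background, those of glucose use run from Eno1 at 6.67 downwards and fatty-acid genes from Acadl at 5.13 downwards, and Pklr, Ldhc and Ucp3 are the open circles.

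Energy buffering and respiration showed muscle and general forms side by side. Of creatine kinase and oxygen-binding genes all 11 measured were above background (median 2.93). Muscle creatine kinase, Ckm, read 5.16, 5.36 and 5.34, the brain form Ckb, also of fetal heart, 1.71, 1.78 and 1.80, and the muscle mitochondrial form Ckmt2 0.43, 0.48 and 0.35. The general mitochondrial form Ckmt1 was at -2.36 ± 0.12. Adenylate kinase, Ak1, was at 5.69 ± 0.01 and myoglobin, Mb, at 4.41 ± 0.04. The creatine transporter Slc6a8 read 3.17, 2.99 and 3.14. The adenine nucleotide carriers Slc25a5 and Slc25a4, the latter the form of heart and muscle, were at 5.41 ± 0.03 and 2.93 ± 0.03. The second Slc25a5 probe lay at 3.38.

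Of respiratory chain genes with isoform pairs 15 of 17 measured were above background (88.2%), with a median of 5.50, and 13 were in the highest 10%. The muscle form Cox6a2 read 7.40, 7.35 and 7.35 and the general form Cox6a1 7.03, 7.00 and 6.98. Cox8b, the muscle form of that subunit in rodents, was at 5.57 ± 0.08 and the general Cox8a at 6.67 ± 0.04. Cox4i1 was at 6.61 ± 0.01 and its oxygen-sensitive partner Cox4i2 at -0.27 ± 0.09. The testis forms Cyct and Cox8c were above background on no array, and Cox7a1 was not measured.

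All 23 measured cell division genes were above background, with a median of 0.54. Cdkn1a, which halts the cycle, read 3.74, 3.67 and 3.74, and the replication enzyme Rrm2 3.65, 3.70 and 3.68, although a second Rrm2 probe gave -1.54. The mitotic kinase Cdk1 was at 2.93 ± 0.06, the inhibitor Cdkn1c at 2.36 ± 0.06, the cyclin Ccnd2 at 2.02 ± 0.14 and the replication clamp Pcna at 1.93 ± 0.08. Genes that drive and genes that block division were thus both above background. Which cells of the culture they came from was not tested.

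Genes of other heart cells were next compared with lists from organs that are not heart. Those 4 comparison lists, of liver, pancreas and gut, brain and retina, and testis, had 11 of 61 members above background (18.0%). Against this stood 102 of 152 genes of other cell types (67.1%), beside 63.5% of all named genes. In the heart lists, which include isoforms of other tissues, 138 of 166 were above background (83.1%). In the metabolic lists it was 123 of 129 (95.3%), with the 23 measured cell division genes counted among them. By list the comparison counts were 3 of 16 for liver, 2 of 15 for pancreas and gut, 2 of 15 for brain and retina, and 4 of 15 for testis. The liver genes included Ahsg at 2.20 ± 0.11 and Tf at 0.01 ± 0.06, while albumin, Alb, was above background on no array. Ahsg rests on 1 of 2 probes, and the other was above background on no array.

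Of fibroblast and matrix genes 21 of 22 were above background on all 3 arrays (95.5%), with a median of 2.06 and 7 members in the highest 10%. Sparc read 7.45, 7.40 and 7.43 and S100a4 7.34, 7.35 and 7.25. Collagen genes were strong, with Col1a1 at 6.77 ± 0.04, Col1a2 at 6.55 ± 0.07 and Col3a1 at 5.43 ± 0.09. The intermediate filament gene Vim, shared by many cells outside muscle, was at 5.12 ± 0.03. Further members, named after their values were seen, were Dcn at 0.91 ± 0.06, Pdgfra at -0.04 ± 0.08 and Tcf21 at -1.68 ± 0.10, all known as fibroblast genes. Some other members were below the median of all genes above background. They were Lum at -0.83 ± 0.11, Mfap5 at -1.92 ± 0.08, Dpt at -2.48 ± 0.05, Thy1 at -3.55 ± 0.07 and Fap at -3.96 ± 0.14. Col5a1, Col6a1, Fn1, Fbln2, Loxl1, Postn and Ddr2 lay above that median. Ddr2 was at 0.98 ± 0.09, with its second probe at -0.57. The 7 members in the highest 10% were mostly matrix genes that several cell types make. The share of fibroblasts in the cultures cannot be read from these signals.

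Endothelial genes were above background in 17 of 20 cases (85.0%) but with a median of -2.82, below that of all genes. The VEGF receptor Kdr read 1.89, 1.92 and 1.82 and the TGF-beta co-receptor Eng 0.27, 0.55 and 0.63. Egfl7 (-1.35 ± 0.08), Robo4 (-1.91 ± 0.02), Pecam1 (-2.15 ± 0.16) and Vwf (-2.19 ± 0.06), all typical of endothelium, gave weaker signals. The other Vwf probes lay at -4.44 and -4.67. The tight junction gene Cldn5, the lymphatic marker Lyve1 and the arterial factor Sox17 were above background on no array.

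All 13 measured genes of smooth muscle cells and pericytes were above background (median 0.26). Tagln, an actin-binding protein also of fetal heart muscle, read 4.78, 4.87 and 4.81, and the proteoglycan Cspg4 4.06, 3.79 and 3.96. Mcam was at 3.11 ± 0.03, Smtn at 2.73 ± 0.10, with its second probe at -0.01, and Aoc3 at 0.53 ± 0.05. The smooth muscle myosin Myh11, the most specific gene of this list, was at 0.78 ± 0.23, and replicate 1 (0.52) lay below the others (0.96 and 0.85). Its second probe lay at -0.40.

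Macrophage and leukocyte genes were above background in 15 of 18 cases (83.3%, median -1.09). Lysozyme, Lyz2, read 4.32, 4.31 and 4.32. The adaptors Tyrobp (2.24 ± 0.09) and Fcer1g (0.66 ± 0.09) and the lysosomal protein Laptm5 (1.64 ± 0.02) were also found, and Cd68 and Aif1 were at 0.06 ± 0.05 and 0.05 ± 0.07. The scavenger receptors Mrc1 and Cd163 of resident macrophages were above background on no array. Lymphocyte genes were at background by contrast, with 2 of 17 above it (11.8%), Cd3d at -3.25 ± 0.03 and Cd4, which macrophages of the rat also carry, at -4.20 ± 0.04. Of mast cell and granulocyte genes 4 of 15 were above background (26.7%), all low, namely Kit (-2.93 ± 0.14), Hdc (-3.71 ± 0.05), Camp (-3.95 ± 0.20) and Mpo (-5.15 ± 0.07). The lymphocyte share lay below the 18.0% of the 4 comparison lists together. The mast cell and granulocyte share lay above it and equalled that of the testis list, the highest of the 4.

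The 12 epicardial and mesothelial genes were all above background (median -0.64). Keratin 18, Krt18, read 3.66, 3.45 and 3.65, mesothelin, Msln, 3.31, 3.22 and 3.39, and the uroplakin Upk1b 2.62, 2.52 and 2.68. In all of these replicate 2 was lowest. Krt8, the partner of Krt18, was at 0.14 ± 0.19, and the factors Tbx18 and Bnc1 were at -0.01 ± 0.10 and -0.46 ± 0.04. Tbx18 rests on 1 of 2 probes, with the other above background on no array, and the second Upk1b probe lay at -1.32. Wt1, the epicardial marker factor, was at -1.37 ± 0.11, with its other probes at -4.44 and -4.85.

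Genes of nerve cells, red cells and skeletal muscle precursors were above background in part, beside 63.5% of all named genes. Of neuron and Schwann cell genes 8 of 15 were above background (53.3%, median -2.76). The noradrenaline enzymes Dbh and Th were at -0.22 ± 0.04 and -2.07 ± 0.05, the adhesion molecule Ncam1, which heart muscle also carries, at -0.67 ± 0.10, and Prph, S100b and Mbp at -2.70, -2.81 and -2.93, S100b on 1 of 2 probes. Chat, Snap25, Syn1 and Cdh19 were above background on no array. Red cell genes were above background in 6 of 11 cases (54.5%, median -2.13), with Hba-a1 at -0.03 ± 0.03 on 1 of 2 probes, Hbb-b1 at -1.91 ± 0.09, Hbb at -2.03 ± 0.08, also on 1 of 2 probes, and the haemoglobin chaperone Ahsp at -2.22 ± 0.07. Of skeletal muscle precursor genes 4 of 9 were above background (44.4%). Pax3 reached 1.84 ± 0.12 on 1 of 2 probes, while Pax7, Myod1, Musk and Myf6 were above background on no array. Of 7 genes chosen for the sex chromosomes only Sry was measured, at -4.80 ± 0.11.

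**Figure D4:**
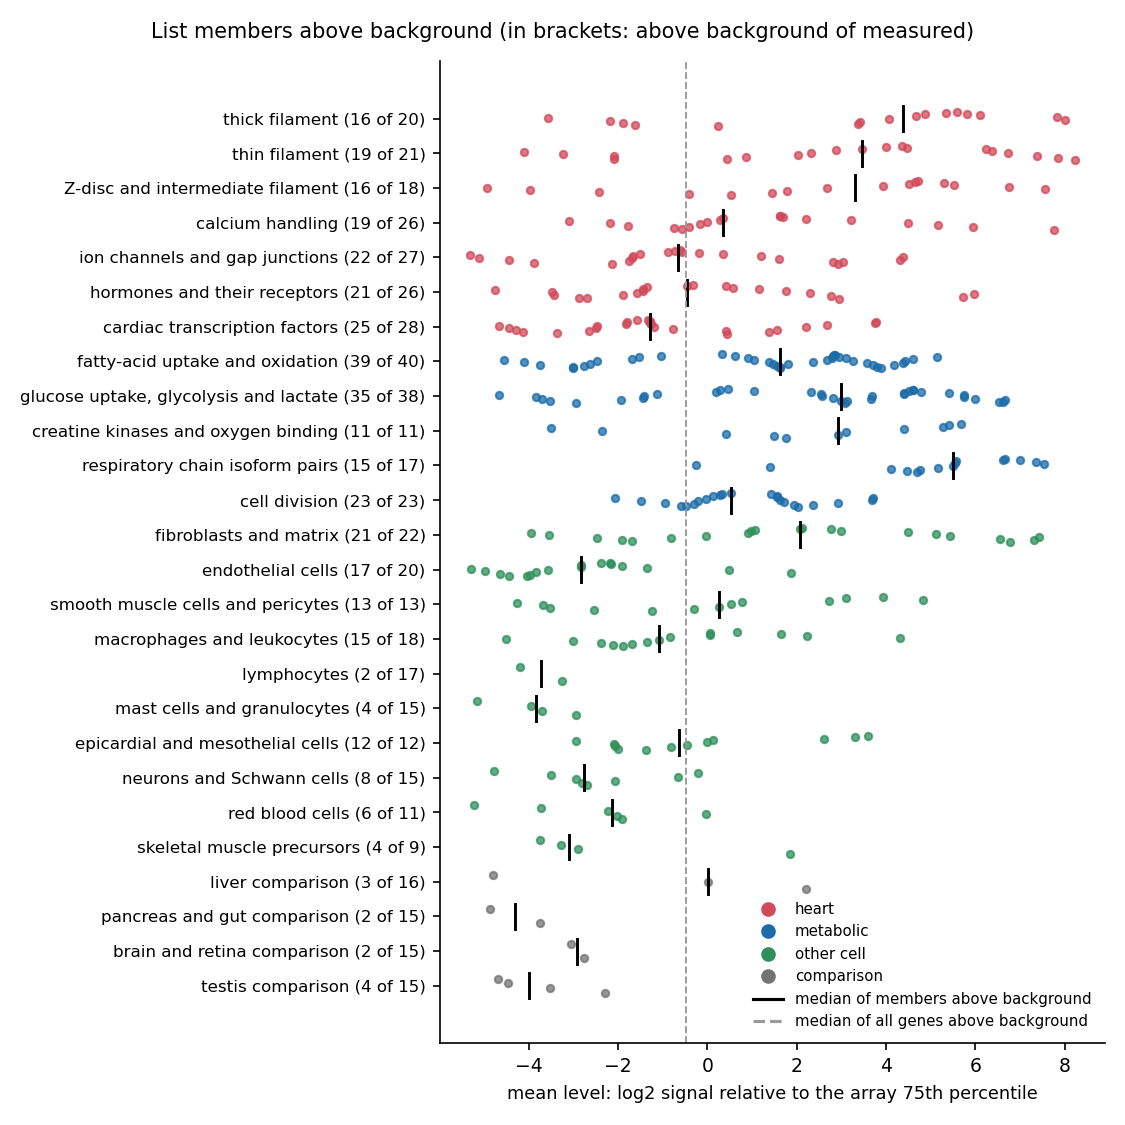
Mean level (x axis, log2 signal relative to the array's 75th percentile) of each list member above background, 1 point per gene, for 26 lists coloured by kind, with the count above background of measured in brackets, a black bar at the list's median and a dashed line at -0.48, the median of all genes above background. By their medians the respiratory chain and thick filament lists lie furthest to the right. The comparison lists of pancreas and gut and of testis, and the mast cell and lymphocyte lists, lie furthest to the left.

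The 3 cultures were close to each other for most genes. The median SD was 0.07, the 90th percentile 0.18 and the 99th 0.38, and 52 of 12277 genes had an SD of at least 0.5. By list the median SD ran from 0.03 for the lymphocyte genes above background, which are only 2, to 0.15 for the testis comparison list. The median SD was 0.10 in thick filament genes and 0.05 in respiratory chain genes. For Mybpc3, Myom2, Myh8, Ttn, Actn2 and Myh7, genes singled out after their values were seen, replicate 1 gave the lowest level. Other sarcomere genes went the other way, with replicate 1 highest in Myl2, Myl7, Tnni1, Csrp3, Nexn, Lmod2 and Ankrd1.

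The 10 genes with the largest SD were all weak or moderate, with means between -4.93 and -1.21. Tlx3, a factor of neural development, read -3.75, -5.27 and -0.67, and the array name LOC680119 -1.25, -4.95 and -4.44. Taco1, which is needed to make a respiratory chain subunit, read -3.48, -3.71 and -0.97, and Ank2, a scaffold of ion channels in heart, -4.66, -4.69 and -2.12. In each of these a single culture lay above the others. Shld2, Ing3, Spic, Metrn, Actn3 and Lmod1 had SDs between 0.84 and 1.18. Of the 10 probes 7 stand on the array as 1 spot and 3 as 2 spots, so a fault of a spot and a difference between cultures cannot be told apart for most of them.

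**Figure D5:**
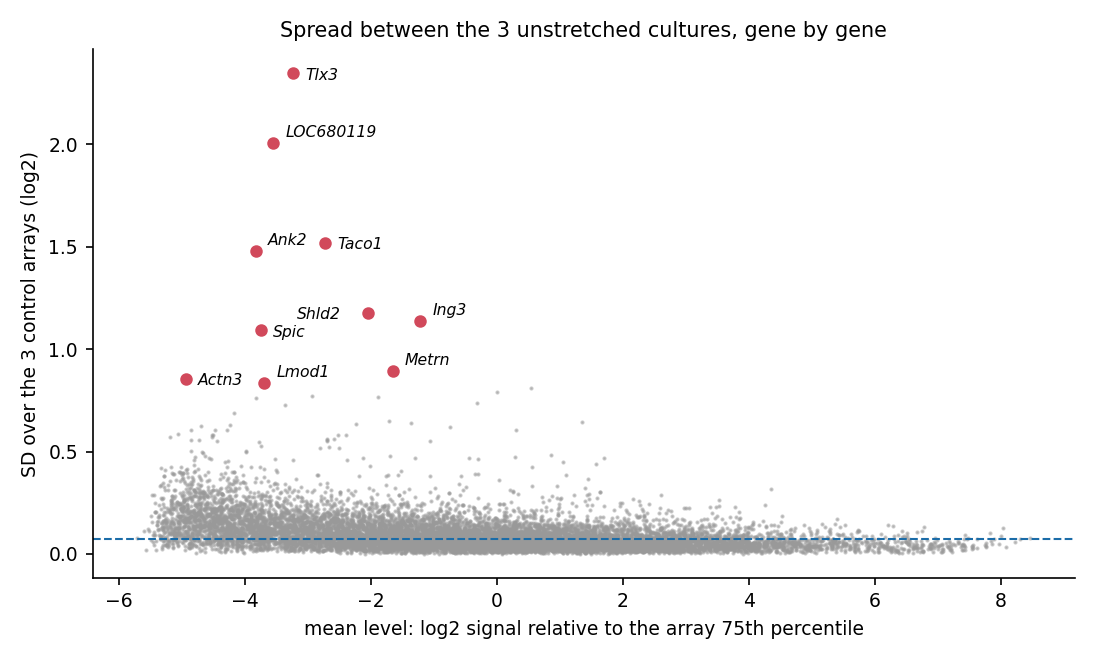
SD over the 3 control arrays (y axis, log2) against mean level (x axis, log2 signal relative to the array's 75th percentile) for 12277 genes above background, 1 grey dot per gene, with the 10 largest SDs in red and a dashed line at the median SD of 0.07. The red points lie between -4.93 and -1.21, and the cloud narrows towards high levels.

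At the threshold itself the weakest genes above background were the array name RGD1566010 at -5.70 ± 0.08, the vomeronasal receptor Vom2r47 at -5.60 ± 0.11 and the placental gene Plac1 at -5.56 ± 0.02. Of the genes left out because they were marked on only 2 of 3 arrays, Cspg4b, Tmem150c and LOC686384 had the highest means. Their mean levels were -3.83, -3.94 and -4.31 with SDs of 2.72, 2.22 and 2.55, above the weakest genes kept. In each of these 3 genes 1 culture gave a signal far above the others, as in Cspg4b with -4.46, -0.85 and -6.18. A choice by highest mean among left-out genes favours such cases.

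Most of the resting profile was also detected under stretch. Of the 12277 genes above background in the controls, 11413 (93.0%) were above background on every array of each stretched group as well, and 283 in none of the stretched groups on all 3 of its arrays. Counts per group were 11552 genes at 2 h, 11861 at 6 h and 11885 at 24 h. Only 8 genes were marked on all 3 control arrays and on no stretched array, namely Actn3, Dhx58, Gpr34, Ifi47, Klhl29, Myo16, RGD1566034 and Spic, of which Actn3 and Spic were also among the 10 most variable genes. All control arrays lay on slide 1 with the 2 h arrays and 2 of the 6 h arrays, whereas the other 6 h array and the 24 h arrays lay on slide 2, and these counts carry no test.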

How the data were processed

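Per the labels, Agilent 60-mer rat arrays with 1 colour (Cy3) measured total RNA of 12 cultures; the 3 control arrays were used throughout and the other 9 only for counts of detected genes. Per the file headers, the deposited processed signal is a linear intensity from which background and spatial trends of the array had been removed; arrays had not been scaled to each other. Mean signal and local background are intensity values before that correction, and the deposited spot marks are other values, 0 or 1. Feature Extraction 11.0.1.1 is named in the file headers and 10.7.3.1 in the submitters' processing notes. Probe positions follow rn4, the build in the array design's header. In the series matrix the authors deposited an intensity for each of 28902 probes, scaled in a way that no source used here states; it served as an alternative only.

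Spots marked as outliers (328 to 359 per control array) were left out, and spots of 1 probe were averaged. The level is log2 of this intensity minus log2 of the array's 75th percentile over non-control probes. A probe was above background on an array when more than 50% of its spots were marked. Of 30367 probes, 18377 were named through their accession, 2484 through a symbol and 529 through a synonym in a RefSeq gene table of GRCr8; 1834 kept the file's name and 7143 had none. Each gene is given by its highest probe above background. No contrast was fitted and no test was run. The step from probe levels to gene means and ranks was tested on simulated data, for genes with 1 probe. Detection was set there by a level cutoff. The background marks, scaling, outlier removal and choice among probes were therefore not tested. Python 3.11.15 with pandas 2.3.3, numpy 2.4.6 and matplotlib 3.10.9 and R 4.3.3 with limma 3.58.1 were used.

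The members and the 27 lists (530 genes, 508 measured) were chosen with earlier results of these data known. Named genes are the 30 highest, up to 6 highest members of each list, members on no array, the 4 markers, the 10 with the largest SD, 3 on each side of the threshold, and isoform partners of these; other names were chosen after their values were seen, and a few genes that the rule would name are not reported here. Alternatives covered the background mark, background correction, scaling, choice of probe, outlier spots and leaving out each culture. The number of arrays, 3, limits the precision.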

Additional observations from a re-analysis of the deposited data

Results flagged for a closer look

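A signal outside the ranked genes was found in probes without a gene name. Of 7143 such probes 3760 (52.6%) were above background on all 3 control arrays, and 108 of them reached the level of 6.52 that marks the highest 1% of named genes. The brightest gave a level of 8.40 ± 0.07 and lies on rn4 chromosome 7. Which transcripts they read was not tested.

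In the arrays of stretched cultures, 11 genes that were above background on no control array were above it on all 3 arrays of at least 1 stretched group. They were Cplx1, Dnd1, Fermt1, Foxa2, Hs3st2, Hsd3b1, Kcne1, LOC684773, Plcxd2, Pnoc and Proca1. For Cplx1 that group was 6 h of stretch and for the other 10 it was 24 h. On all 9 stretched arrays the count of such genes was 0. The difference was not tested, and the 24 h arrays lay on another slide than the controls, so slide and stretch cannot be told apart for them.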

How the results depend on the processing

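No paired analysis was possible because the results come from no test and from 1 group. The count of genes above background was 12277, and 12581 or 13062 with 2 or 1 of the 3 arrays required, 12547 with any spot of a probe sufficing and 14403 with the weaker mark of a positive and significant signal. Leaving out each culture gave 12308 to 12422. List members above background numbered 374 and between 374 and 425 under the same changes. With the weaker mark the lymphocyte, mast cell and liver lists each had 7 members above it, pancreas and gut 5, and brain and retina 4, more than 1.5 times the counts given. Of the 30 highest genes 30 stayed so with scaling by the array median, by quantiles or by spike-in spots and with outlier spots kept, 24 with normexp correction or the series matrix, 20 with the median over a gene's probes and 28 to 29 without each culture. Scaling by the median raised all 404 mean levels by 3.49 and by spike-in spots by 1.57, with no change in the order of genes by mean. The spike-in intensity was 279, 352 and 281 in replicates 1, 2 and 3, so this scaling shifts each array by its own amount. The order of the 3 cultures within a gene, and its SD, can therefore differ under it and were not examined. Normexp moved levels by -0.39 to 2.06, and 102 of 404 stayed within 1 SD. In the matrix 119 of 394 did, with shifts of -4.55, for Kcnj5, to 1.61. The median over probes lowered 83 levels, with the largest shift at -3.53, and the others stayed within 1 SD. With quantiles, with outlier spots kept and without each culture all 404 did, although leaving out a culture moved single genes with a large SD by up to -1.15, 1.02 and -1.28 for replicates 1, 2 and 3. Genes not above background have only an upper bound on their level.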

Other observations

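Between ranks 31 and 100 stood genes of housekeeping and stress defence that are in no list above, chosen here after their values were seen. Both chains of ferritin, the iron store, gave strong signals, Ftl1 with 7.41, 7.42 and 7.39 and Fth1 with 7.42, 7.40 and 7.33. The constitutive chaperone Hspa8 was at 7.00 ± 0.04, and the polyubiquitin gene Ubb was at 6.93 ± 0.01. Cytoplasmic actins, which are known to be shared by all cells, were at 7.17 ± 0.03 (Actg1) and 6.94 ± 0.06 (Actb). The LIM protein Crip2, known from heart and vessels, was at 7.41 ± 0.05, and the proteoglycan Bgn of the matrix at 6.92 ± 0.04. Idh2, a mitochondrial source of NADPH, and Tkt of the pentose phosphate pathway were at 6.90 ± 0.03 and 6.77 ± 0.02.

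Myh13, a myosin heavy chain known from eye muscles, stood at rank 98 with 6.57, 6.69 and 6.78 on 1 of its 2 probes, while its other probe was not above background on all 3 arrays. Its bright probe shares a run of 16 bases with the Myh6 probe, more than the 9 shared by Myh6 and Myh7. What part of this signal comes from other myosin transcripts was not tested. Ceacam9, a gene known from placenta, stood at rank 42 with 7.22, 7.23 and 7.24 on its only probe.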
